A study of Populus cathayana with 4 samples.

Results

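The genes described here are those whose protein the deposited annotation of poplar leaf transcripts places in the cell wall. They are the 90 of 10741 tested rows, from 89 loci, whose gene ontology component field lists the exact term cell wall and which reached 10 counts over the 4 libraries. Rows that also listed antioxidant activity, carbohydrate binding, oxidation of diphenols, the plastid stroma or the chloroplast thylakoid had been set aside, as had Potri.006G071200.1 and Potri.014G149700.1. Of 183 rows with the term, 104 had at least 10 counts and 14 of these were left out by the other conditions. No condition is stated as a measured difference between libraries, but the set was chosen with earlier results of these data known. Of the rows set aside by identifier, Potri.006G071200.1 was itself called lower with UV-B in both sexes. Potri.014G149700.1 was called lower for sex by UV-B, the ratio of the female to the male UV-B ratio.

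The leaves came from Populus cathayana, a dioecious poplar, raised from potted cuttings in a greenhouse. The 4 groups were plants of each sex kept for 100 days under either reduced or ambient solar UV-B, and the fourth fully expanded leaves were taken. Each group is 1 library of RNA pooled from 9 plants in equal shares and read on its own flow cell lane. Neither the lane nor the pool can thus be told apart from the group, and how many clones the cuttings stood for is not known here.

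The plant cell wall is a network of cellulose microfibrils held in hemicellulose and pectin, with proteins that cut, link and modify these polymers while the cell grows. Wall proteins reach it through the secretory pathway, where many receive sugar chains and disulfide bonds. In leaves the wall sets how far a cell can expand and is the first layer that light, pathogens and water loss act on. Secreted proteases mature or degrade other wall proteins, esterases take ester groups off pectin and other polymers, and glycosidases trim sugars from wall polysaccharides and glycoproteins.

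Values are counts of sequence tags, 1 site of cutting per transcript, so they need no correction for transcript length, and CPM is the count scaled by the library total. The listed rows held 624926 to 722533 tags per library, which is 14.4% to 17.2% of the library totals printed with the table. The listed table holds no count of 1, so a listed 0 can stand for 0 or 1 tag. With 1 library a group there is no replicate spread, and every test and interval covers counting error between pooled libraries only. A gene was called where an exact binomial test of the pair of counts, adjusted by Benjamini-Hochberg over all 10741 rows, gave p below 0.001 and the CPM differed at least 2-fold. Log2 ratios carry exact 95% intervals. If plants or pools varied by a coefficient of variation of 0.3, a value assumed and not measured, edgeR's exact test would leave 0 of the members' calls between library pairs. Scaling the libraries by TMM factors in place of their totals shifted the median log2 ratio of all rows by -0.21 for UV-B in males and by 0.19 for females against males under ambient UV-B. In the other comparisons of library pairs the shift was -0.01 or -0.02.

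The members are a mixed set by function. Their gene ontology function terms gave 14 endopeptidases, 3 other peptidases, 10 glycosidases, 9 carboxylesterases, 4 phosphatases, 4 kinases, 3 oligosaccharyl transferases, 3 disulfide oxidoreductases and 11 with another function. A further 29 listed no function. None had a description or term that names a pectin enzyme, a xyloglucan or other hemicellulose enzyme, or a structural wall protein such as extensin. The best database hit named a protein in 5 of 90: a subtilisin-like protease in Potri.003G067000.1 and Potri.001G167300.1, a leucine-rich repeat transmembrane protein in Potri.017G130600.1, a putative phagocytic receptor in Potri.008G140600.1 and bark storage protein A in Potri.008G028700.1. All other members are therefore given by identifier and listed function.

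The label rests on the annotation, and other parts of that annotation place many members elsewhere as well. The wall was the sole component for 27 members, while 63 listed further ones. Among these were an intracellular membrane-bounded organelle in 26, a cytoplasmic vesicle in 23, an organelle membrane in 21, the extracellular region in 10 and the plastid in 7. Wall organization was listed as a process for 9 members, which were the 9 carboxylesterases. Location was not measured in these samples.

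Most members were low in abundance. The median count per member lay between 13.5 and 18.5 in the 4 libraries, 36 members had at least 100 counts in all and 72 were above 0 in every library. The row just inside the limit, Potri.009G019600.1, had 3, 4, 0 and 3 counts in the reduced and ambient UV-B libraries of males and then of females, the order kept throughout. At 9 counts, just outside, were 4 rows, among them Potri.003G076300.1 with 9, 0, 0 and 0 counts. A further 74 rows met every condition but the count, these 4 included. Summed over the members, the level was 1028 CPM (998 to 1059), 1115 CPM (1084 to 1148), 1062 CPM (1032 to 1093) and 984 CPM (955 to 1014). Potri.002G079900.1 alone made up much of it, and without that gene the sums were 895, 846, 784 and 713 CPM. The sum over all members thus ranged from 984 to 1115 CPM and hid a wider spread among the rest. Without that gene it was highest in males under reduced UV-B (867 to 923) and lowest in females under ambient UV-B (688 to 739). Of 90 members, 21 were called in at least 1 comparison and 69 in none.

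**Figure D1:**
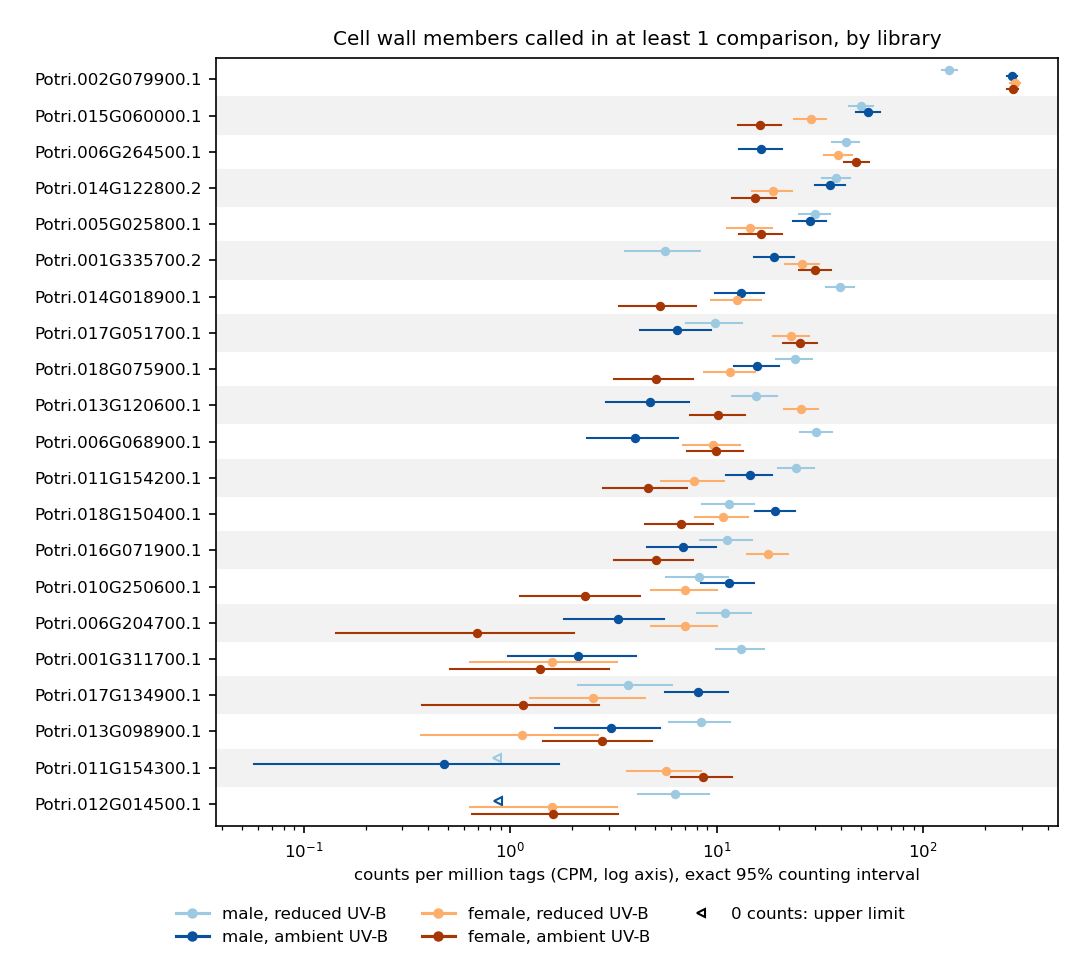
Level of the 21 cell wall members called in at least 1 comparison, in CPM on a log axis, with exact 95% counting intervals; each of the 4 colours is 1 pooled library and an open triangle gives the upper limit of a library at 0 counts. Potri.002G079900.1 sits at 134 CPM in males under reduced UV-B and at 269 to 279 CPM in the other libraries, while Potri.011G154300.1 is at or near 0 in both male libraries.

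Male leaves under ambient UV-B had lower counts of a small and mixed group of wall genes. Lower were the endopeptidases Potri.006G068900.1, Potri.014G018900.1 and Potri.006G204700.1, the carboxylesterase Potri.012G014500.1 and 3 members without a function term. Higher were Potri.002G079900.1 and Potri.001G335700.2, also without a term. Of 90 members 7 were called lower (7.78%), where the background over all tested rows was 1.46%, and 2 were called higher (2.22%), against a background of 2.46%. Among rows with at least 50 counts, tested on their own, 6 of 52 members were called lower (11.5%) and 2.65% of all rows. The median log2 ratio was -0.09 over members and 0.11 over all rows, and 53.3% of members and 40.2% of all rows lay below 0. These medians and shares add 0.5 to each count. With TMM factors the members' calls were 7 lower and 1 higher, and the split over all rows went from 264 higher and 157 lower to 117 higher and 232 lower.

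Female leaves showed fewer calls, and all of them were in the same direction. Ambient UV-B went with lower counts of the endopeptidases Potri.016G071900.1 and Potri.006G204700.1 and of Potri.013G120600.1, a member anchored to the membrane and without a function term. That is 3 of 90 called lower (3.33%), with a background of 1.52%, and 0 of 90 called higher, with a background of 1.46%. The median log2 ratio was -0.09 over members and 0.02 over all rows. Below 0 were 54.4% of members and 47.7% of all rows.

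The male and female UV-B ratios share no library. Lower under ambient UV-B in both sexes were 30 members (33.3%), against 20.6% of all rows, and higher in both were 23 (25.6%), against 32.8%. The remaining members lay lower in males and higher in females in 18 cases and the other way in 19. Called lower in both sexes were 2 members, Potri.013G120600.1 and Potri.006G204700.1, among 19 rows of the whole table. Few members were measured well enough to be called steady: the interval lay wholly within 2-fold for 15 in males and 19 in females, and among members not called it reached past 2-fold for 64 of 81 in males and 68 of 87 in females.

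**Figure D2:**
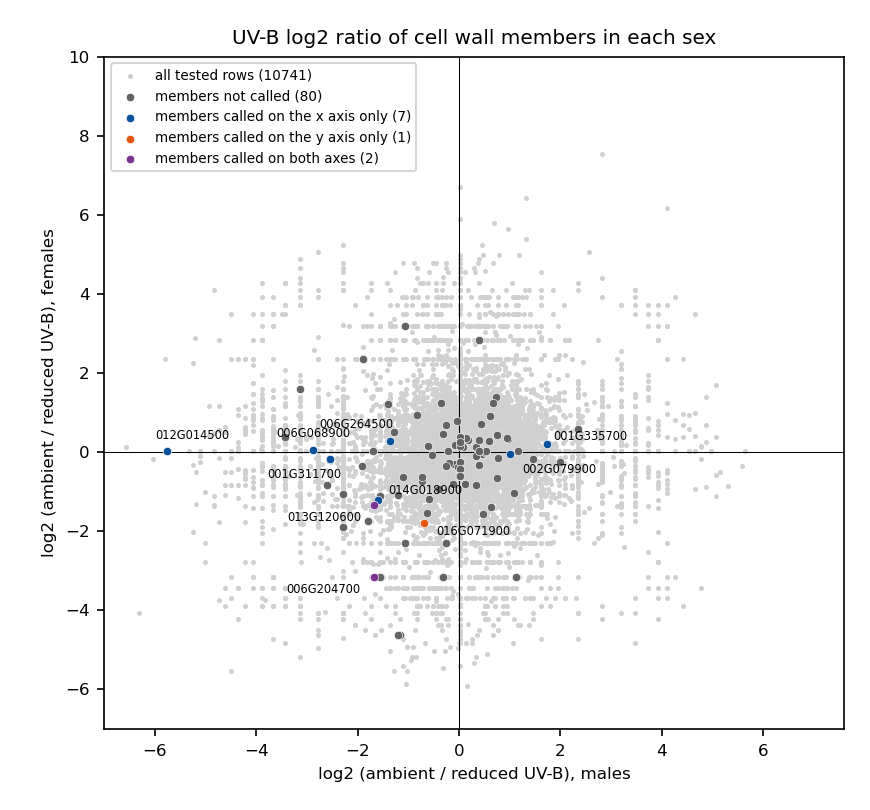
Log2 ratio of ambient to reduced UV-B, with 0.5 added to each count, in males (x axis) and females (y axis); grey points are the 10741 tested rows, 3 of which fall outside the axes, and larger points are the 90 members. The 2 members called in both sexes lie in the lower left, and the other 7 called in males include Potri.006G068900.1, which is far to the left and near 0 on the female axis.

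The endopeptidases, enzymes that cut proteins within the chain, were the largest class with a function and had 3 of 14 called lower with UV-B in males (21.4%, background 1.46%) and 2 of 14 in females (14.3%, background 1.52%). In males their summed level was 217 CPM (203 to 232) at reduced UV-B and 135 CPM (124 to 147) at ambient UV-B. In females it was 158 CPM (147 to 171) and 93.4 CPM (84.5 to 103). The log2 ratio of the sums was -0.68 (-0.84 to -0.53) in males and -0.76 (-0.94 to -0.58) in females. With TMM factors it was -0.89 and -0.77. These intervals pool tags over genes and do not cover spread among members, and the sums rest largely on a few, different genes. In males the largest falls were in Potri.014G018900.1 (170 to 55 counts) and Potri.006G068900.1 (130 to 17). In females the largest was in Potri.003G067000.1 (367 to 207), while Potri.006G068900.1 had 42 and 43. Per member, 12 of 14 were lower in males, with a median log2 ratio of -0.97. In females 7 of 14 were lower and the median was -0.12, with the scarcer members on both sides of 0. The classes by function were formed after the table was seen, so these counts are a description.

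Potri.003G067000.1, a subtilisin-like protease, belongs to a family of secreted serine proteases and was the most abundant of the class with 357, 323, 367 and 207 counts. The female library under ambient UV-B stood below the other 3. Its log2 ratio for UV-B was -0.12 (-0.34 to 0.10) in males and -0.80 (-1.06 to -0.55) in females, short of 2-fold in both. The other subtilisin-like protease, Potri.001G167300.1, had 49, 31, 42 and 14 counts and was not called, at -1.56 (-2.55 to -0.66) in females.

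Potri.006G068900.1 had 130, 17, 42 and 43 counts. The male library under reduced UV-B was high, the male library under ambient UV-B was low, and both female libraries lay between and close together. It was called 7.51-fold lower with UV-B in males, a log2 ratio of -2.91 (-3.73 to -2.17), while the ratio in females was 0.06 (-0.59 to 0.71).

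Potri.014G018900.1 had 170, 55, 55 and 23 counts, highest in males under reduced UV-B and lowest in females under ambient UV-B. The male UV-B log2 ratio of -1.60 (-2.07 to -1.16) was called, and the female ratio of -1.24 (-2.01 to -0.51) was not. Potri.016G071900.1, with 48, 29, 78 and 22 counts, was called in females at -1.80 (-2.56 to -1.11) and stood at -0.70 in males. Potri.006G204700.1 had 47, 14, 31 and 3 counts and was called in both sexes, at -1.72 (-2.70 to -0.84) in males and -3.35 (-5.70 to -1.67) in females. Both male and female counts of this gene were lower under ambient UV-B.

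The other endopeptidases were not called in any comparison. Potri.002G081400.2 (49, 53, 27 and 34 counts) and Potri.002G171700.1 (35, 30, 27 and 22) differed little. Potri.001G440300.1, Potri.006G141200.1, Potri.019G064300.1, Potri.002G151900.1, Potri.019G064800.1 and Potri.003G195500.1 had at most 18 counts in any library. The 3 other peptidases were scarce as well, with sums of 25, 14, 9 and 9 counts and medians of -1.07 in males and -0.34 in females.

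**Figure D3:**
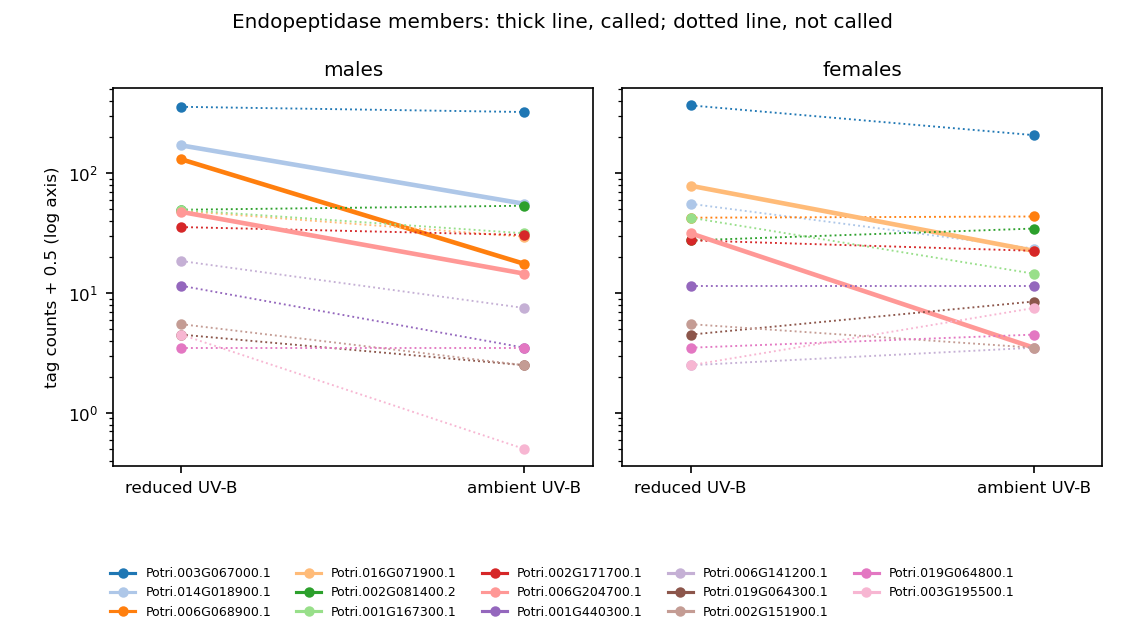
Tag counts plus 0.5, on a log axis, of the 14 endopeptidase members under reduced and ambient UV-B in males (left) and females (right); each line is 1 gene, thick where the pair of libraries was called and dotted where it was not. The thick lines all slope down, 3 in males and 2 in females, and only Potri.006G204700.1 is thick in both panels.

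In pooled leaf RNA, fewer cells of a type and less RNA per cell cannot be told apart. The labelled leaf tissue was checked with mesophyll markers, 27 rows, which had summed levels of 7594, 8686, 8449 and 6950 CPM. Of these rows 1 was called higher in males and 2 lower in females. The UV-B log2 ratio of mesophyll rows lay below 0 for 17 in males and 21 in females. The male sum and most of its rows thus moved in opposite directions. Markers of vascular and secondary wall forming cells (14 rows: 7 laccase, 4 cellulose synthase and 3 fasciclin-like genes, with 0 COBRA genes found) had summed levels of 103, 70.4, 72.6 and 17.8 CPM, with 1 of 14 called lower in males and 3 of 14 in females. Epidermal markers (7 rows, all of the beta-ketoacyl-CoA synthase family, 0 called) summed to 23.1, 11.2, 18.7 and 7.40 CPM. Their UV-B log2 ratio lay below 0 for 5 rows in males and 6 in females. Rows matched as markers of dividing or young tissue (45 rows) summed to 198, 242, 281 and 231 CPM, with 0 called in males and 1 in each direction in females. The match was by words such as cyclin and tubulin, so it took in kip-related cyclin-dependent kinase inhibitors and tubulin folding cofactors. The histone H4-like row Potri.007G013300.1 held 186, 339, 442 and 278 of the 847, 1019, 1233 and 999 counts. At 0 counts were 0 to 3 of the vascular rows and 0 to 2 of the epidermal rows per library. The vascular and epidermal sums moved in the same direction as the endopeptidase sums in both sexes, and their part in the result was not tested.

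The 9 carboxylesterases, all annotated with wall organization and with an enzyme regulator or inhibitor term, hardly moved as a class. Pectin methylesterases, which remove methyl ester groups from pectin, are the best known carboxylesterases of plant walls, but no best hit names one here. Their sums were 222, 214, 214 and 256 counts, and the median log2 ratio for UV-B was 0.09 in males (-0.12 with TMM factors) and 0.02 in females. The most abundant, Potri.006G134600.1, had 67, 89, 94 and 153 counts, and its UV-B ratio was 0.44 (-0.04 to 0.91) in males and 0.73 (0.35 to 1.11) in females. The female library under ambient UV-B was the highest, without a call.

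Potri.010G109400.1 was the steadiest member with at least 100 counts, at 30, 39, 41 and 32 counts and a 1.33-fold range of CPM over the libraries. Potri.012G014500.1 gave the class its only call: 27 counts in males at reduced UV-B, 0 in males at ambient UV-B and 7 in each female library. Against 3 counts in the library at 0, it was at least 8.84-fold lower with UV-B in males. Potri.006G134500.1 (19, 8, 12 and 0) and Potri.002G202600.1 (13, 4, 4 and 0) were lower under ambient UV-B in both sexes, and neither was called.

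Of the 10 glycosidases 0 were called for UV-B in either sex, a count near the backgrounds of 1.46% to 2.46% per direction. Between the sexes 3 were called: 1 higher and 1 lower in females under reduced UV-B, and 1 higher and 2 lower under ambient UV-B, where backgrounds ran from 3.66% to 7.69%. Alpha-glucosidases release glucose from the end of a sugar chain, and 2 rows with that term and consecutive identifiers ran in opposite directions. Potri.011G154200.1 had 104, 61, 34 and 20 counts, more in each male library than in either female library. Potri.011G154300.1 had 0, 2, 25 and 37 counts and was found almost entirely in females. The log2 ratio of females to males for the first was -1.65 (-2.25 to -1.08) under reduced and -1.65 (-2.46 to -0.90) under ambient UV-B. The second was at least 8.12-fold higher in females under reduced UV-B, against 3 counts, and 4.17 (2.21 to 7.27) on the log2 scale under ambient UV-B. The summed counts of both were 104, 63, 59 and 57. The row before them, Potri.011G154100.1, a glycosidase with 9, 7, 4 and 0 counts, was also higher in males than in females at both UV-B levels, without a call. The sources used here do not say how tags common to near-identical genes were shared out, which leaves the split between the rows uncertain.

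Potri.018G150400.1, a beta-glucosidase by its term, had 49, 81, 47 and 29 counts. It was highest in males under ambient UV-B, and females lay lower there at -1.52 (-2.19 to -0.89), which was called. The UV-B ratio in males was 0.75 (0.22 to 1.29), not called. The fucosidases Potri.010G048000.1 (9, 2, 0 and 2) and Potri.010G047900.1 (0, 0, 5 and 6), enzymes that remove fucose from sugar chains, were too scarce for a call.

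Among 3 oligosaccharyl transferases and 3 disulfide oxidoreductases, classed by their function terms, 0 were called for UV-B in either sex. With backgrounds of 1.46% to 2.46% per direction, that count does not set them apart from other rows. Oligosaccharyl transferase adds sugar chains to proteins in the endoplasmic reticulum, and its most abundant row, Potri.010G223500.1, had 124, 174, 150 and 147 counts. The male UV-B ratio was 0.51 (0.17 to 0.86), below 2-fold. Potri.002G036600.1 had 65, 72, 89 and 108 counts. Disulfide oxidoreductases form or break disulfide bonds, and Potri.019G082400.1 had 118, 116, 158 and 102 counts, at -0.61 (-0.98 to -0.24) in females. Potri.014G122800.2 of the same class had 162, 149, 82 and 66 counts, with both male libraries above both female ones.

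Phosphatases and kinases remove and add phosphate groups. The phosphatase Potri.009G121200.1 had 160, 127, 108 and 147 counts and was not called in any comparison. The kinase Potri.010G103000.1, with 32, 40, 28 and 30 counts, was not called either. Potri.017G134900.1, another kinase, had 16, 34, 11 and 5 counts and was called lower in females than in males under ambient UV-B. The leucine-rich repeat transmembrane protein Potri.017G130600.1 had 19, 5, 8 and 2 counts, lower under ambient UV-B in both sexes, with no call.

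Among members with another function, Potri.015G060000.1, a transporter of hydrogen ions by its term, had 215, 228, 125 and 70 counts. Males were alike at both UV-B levels and females were lower, most so under ambient UV-B, where the female UV-B ratio of -0.81 (-1.26 to -0.38) stayed under 2-fold. Potri.018G075900.1, with oxidoreductase and structural molecule terms, had 102, 66, 51 and 22 counts. Its UV-B ratios of -0.60 in males and -1.19 in females were not called. Potri.002G103800.1, annotated with phosphoprotein binding, had 53, 103, 62 and 77 counts, and its ratio of 0.98 (0.49 to 1.49) in males fell just under 2-fold.

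**Figure D4:**
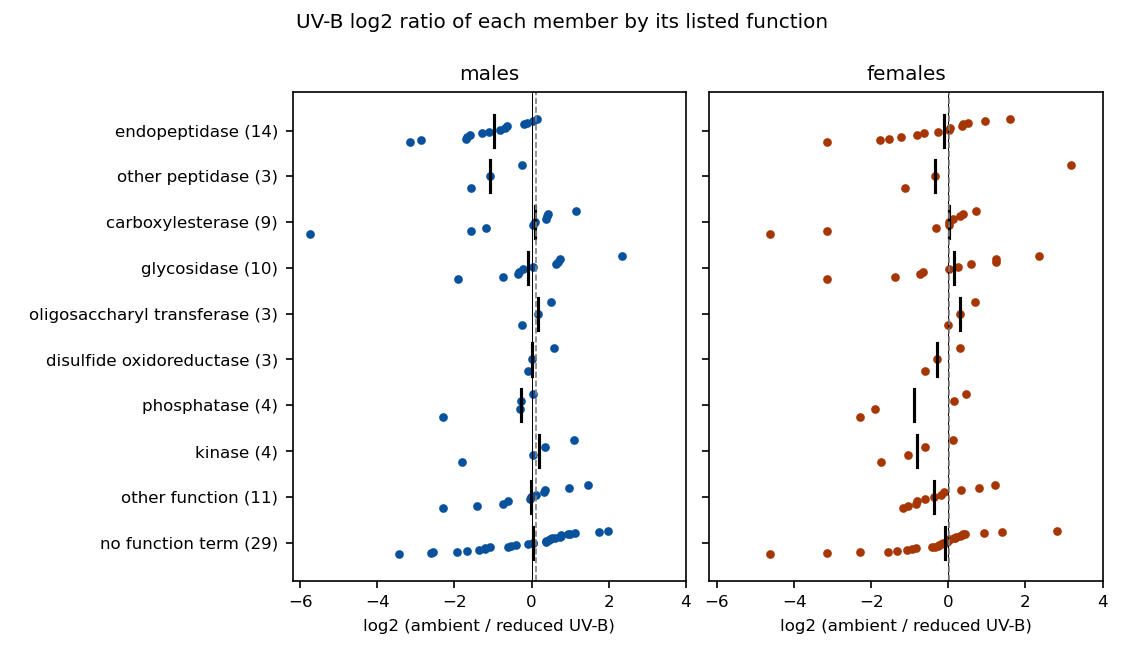
Log2 ratio of ambient to reduced UV-B, with 0.5 added to each count, for each of the 90 members by listed function, in males (left) and females (right); short black bars are class medians, the dashed line is the median of all tested rows, and numbers in brackets are members. Endopeptidases lie mostly left of 0 in males (12 of 14) and on both sides in females (7 of 14).

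The 29 members without a function term included the most abundant gene of the set and both genes called higher with UV-B in males. Potri.002G079900.1 had 572, 1132, 1224 and 1171 counts, so the male library under reduced UV-B was low and the other 3 were alike. Its male UV-B log2 ratio of 1.01 (0.86 to 1.16) was called at 2.01-fold, and the call was lost with each other scaling (0.80 with TMM factors). In females the ratio was -0.04 (-0.16 to 0.08).

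Potri.001G335700.2 was also lowest in males under reduced UV-B, with 24, 80, 114 and 130 counts, though males under ambient UV-B lay below both female libraries. It was called 3.39-fold higher with UV-B in males at 1.76 (1.09 to 2.49). In females its ratio was 0.21 (-0.16 to 0.59). A second transcript row of the locus, Potri.001G335700.1, had 6, 25, 28 and 23 counts, again lowest in males under reduced UV-B, and was not called.

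Other members of this kind ran the opposite way. Potri.006G264500.1 had 181, 69, 170 and 205 counts, low in males under ambient UV-B alone, with a called male ratio of -1.37 (-1.79 to -0.96) and a female ratio of 0.29 (-0.01 to 0.59). Potri.001G311700.1 had 56, 9, 7 and 6 counts, high in males under reduced UV-B alone, and its male UV-B ratio was called at -2.61 (-3.81 to -1.59). Potri.013G120600.1 had 66, 20, 113 and 44 counts, lower under ambient UV-B in both sexes, with called ratios of -1.70 (-2.50 to -0.96) in males and -1.34 (-1.88 to -0.82) in females.

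The abundant members Potri.001G018200.1 and Potri.018G018400.1 stayed short of a call throughout. The first had 171, 284, 186 and 248 counts, higher under ambient UV-B in both sexes at 0.76 (0.48 to 1.04) and 0.44 (0.16 to 0.72). The second had 215, 290, 176 and 168 counts, and females lay below males under ambient UV-B at -0.83 (-1.11 to -0.55).

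Female and male leaves differed in wall genes about as often as in other genes. Sex is here the difference between a pool of female and a pool of male plants, and sex and genotype cannot be told apart. Under reduced UV-B, 8 of 90 members were called lower in females (8.89%, background 5.9%) and 4 higher (4.44%, background 4.66%). Under ambient UV-B, 7 were called lower (7.78%, background 7.69%) and 3 higher (3.33%, background 3.66%). The median log2 ratio of females to males was -0.21 over members and -0.04 over all rows under reduced UV-B, and -0.20 and -0.11 under ambient UV-B. With TMM factors the members' calls under ambient UV-B were again 3 and 7, while the split over all rows went from 393 higher and 826 lower to 551 and 624.

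At both UV-B levels 5 members were called between the sexes, in the same direction each time. Lower in females were the alpha-glucosidase Potri.011G154200.1, the disulfide oxidoreductase Potri.014G122800.2 and Potri.018G075900.1. Higher in females were the alpha-glucosidase Potri.011G154300.1 and Potri.017G051700.1, which lists no function. Potri.014G122800.2 was at -1.02 (-1.42 to -0.63) under reduced and -1.21 (-1.66 to -0.79) under ambient UV-B, and the latter was -0.97 and no call with the sums of listed rows as library totals. Potri.018G075900.1 was at -1.04 (-1.55 to -0.54) and -1.62 (-2.39 to -0.91). Potri.017G051700.1 had 42, 27, 101 and 110 counts, at 1.23 (0.70 to 1.78) and 1.99 (1.37 to 2.65), with both female libraries above both male ones. None of the 5 was called for UV-B in either sex.

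Under reduced UV-B alone, 5 members were called lower in females and 2 higher. Females were lower for Potri.014G018900.1 at -1.66 (-2.13 to -1.22), Potri.006G068900.1 at -1.67 (-2.20 to -1.15) and Potri.001G311700.1 at -3.04 (-4.42 to -1.90). Potri.013G098900.1, an oxidoreductase, had 36, 13, 5 and 12 counts and was called at -2.88 (-4.59 to -1.53). Potri.005G025800.1 had 128, 119, 64 and 71 counts, called at -1.04 (-1.49 to -0.59) under reduced UV-B and at -0.78 (-1.23 to -0.35), without a call, under ambient UV-B. Females were higher for Potri.001G335700.2 at 2.21 (1.57 to 2.91) and Potri.002G079900.1 at 1.06 (0.92 to 1.21). All of these members but Potri.013G098900.1 and Potri.005G025800.1 were also called for UV-B in males. Both comparisons use the male library under reduced UV-B, so the calls are not independent.

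Under ambient UV-B alone, females were lower for the transporter Potri.015G060000.1 at -1.74 (-2.15 to -1.35), the kinase Potri.017G134900.1 at -2.81 (-4.52 to -1.44) and Potri.018G150400.1. Potri.010G250600.1, with 35, 48, 31 and 10 counts, was called lower at -2.30 (-3.45 to -1.30). Potri.006G264500.1 was called higher in females at 1.53 (1.13 to 1.95). It was also called for UV-B in males, and both comparisons use the male library under ambient UV-B. A call at 1 UV-B level and not the other does not show that the levels differ; the test of that difference follows.

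**Figure D5:**
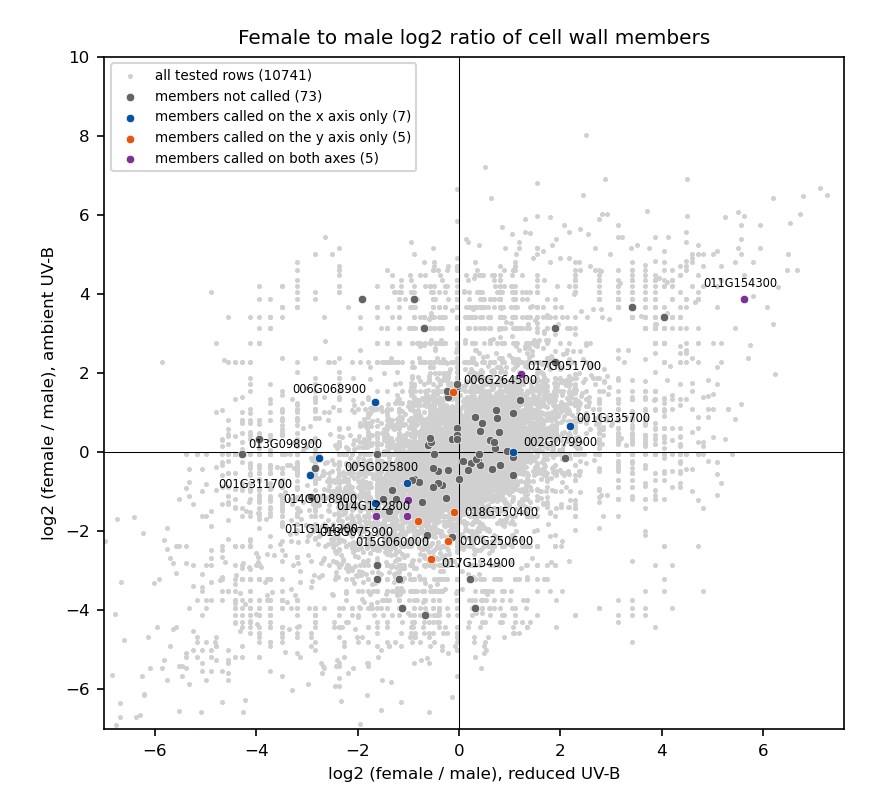
Log2 ratio of females to males, with 0.5 added to each count, under reduced UV-B (x axis) and ambient UV-B (y axis); grey points are the 10741 tested rows, 17 of which fall outside the axes, and larger points are the 90 members. The 5 members called at both levels lie in the lower left (3) and upper right (2).

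The UV-B ratio itself differed between the sexes for 4 members, by an exact test of the gene's 4 counts adjusted over all rows. Higher in females relative to males were the endopeptidase Potri.006G068900.1, with a log2 ratio of ratios of 2.97 (1.95 to 4.01), and Potri.006G264500.1 at 1.66 (1.14 to 2.18). Lower were Potri.001G335700.2 at -1.55 (-2.37 to -0.76) and Potri.002G079900.1 at -1.05 (-1.24 to -0.86). Called higher were thus 2 of 90 (2.22%, background 1.03%) and lower 2 of 90 (2.22%, background 2.02%). In all 4 the UV-B ratio was called in males, and in females it lay between -0.04 and 0.29 without a call. The lower calls ended with TMM factors, at -1.35 and -0.85, while both higher calls held. Among the 86 members not called, the interval reached past 2-fold for 80.

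Wall genes outside the set, found by description, numbered 13. They include Potri.006G071200.1 and Potri.014G149700.1, which had been set aside by identifier. Of the 13 rows 0 were called higher and 1 lower with UV-B in males, and 0 higher and 4 lower in females (lower backgrounds 1.46% and 1.52%). The median log2 ratios were -0.77 and -1.07. Potri.006G071200.1 gave the male call and 1 of the female calls. Of the 13 rows 7 are the cellulose synthases and fasciclin-like genes already counted as vascular markers, and 3 of the 4 female calls are theirs, so the lists are not independent. Their sum is set almost wholly by the pectinesterase Potri.014G149700.1, with 9582, 15347, 15133 and 8872 counts, more than all 90 members together in every library. Endo-1,4-beta-glucanase Potri.001G078900.1, an enzyme that cuts beta-linked glucans, had 9, 26, 18 and 21 counts and was not called.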

How the data were processed

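Digital gene expression tags were measured in 4 pooled libraries, 1 for each sex and UV-B level. Tags of 17 bp next to an NlaIII site were counted with the Illumina pipeline, per the labels' protocols. These protocols mention 3 biological replicates of the extraction, yet 1 library is labelled for each group. The authors deposited raw counts per gene with library totals, and values headed TPM. Despite that heading the deposited values are CPM without length correction, since recomputing them as CPM from the counts gave 100% within 0.005. For tag assignment and genome build, the details were not given in the sources used here. The table held 0 columns of other samples.

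Raw counts with the header totals were used, for the 10741 of 19100 rows with at least 10 counts. Pairs of libraries were compared by exact two-sided conditional binomial tests. Sex by UV-B was tested by an exact conditional test of 4 counts with the noncentral hypergeometric distribution (SciPy 1.17.1). Each was adjusted by Benjamini-Hochberg over all rows. Both were tried on simulated counts that carried counting error only, which cannot show how they fare when pools vary. A call needed an adjusted p below 0.001 and a 2-fold CPM ratio. Medians add 0.5 to each count. Libraries at 0 were bounded against 3 counts, per library. Tags copied by PCR are not independent molecules. No p was computed for the set or its classes.

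The named members are the called ones with at least 50 counts in their highest library (up to 6 per direction and comparison), the 10 most abundant, the most abundant of each role list and the steadiest with at least 100 counts. Other members named, among them the 6 called below 50 counts, and the classes by function were chosen after their values were seen. The members and lists were chosen with earlier results of these data known. Alternatives were TMM factors and an exact test with edgeR 4.0.16, DESeq2 1.42.0 size factors, sums of listed rows, other filters, folds and added counts, and the set without its exclusions. No sequences or coordinates were used.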

Additional observations from a re-analysis of the deposited data

Results flagged for a closer look

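For 4 wall members the UV-B ratio was called different between the male and female libraries, by a test of that difference on the 4 pools, which covers counting error only. The log2 ratio of the female to the male UV-B ratio was 2.97 for Potri.006G068900.1, an endopeptidase whose counts were 130 and 17 in males and 42 and 43 in females. It was 1.66 for Potri.006G264500.1, with 181 and 69 counts in males and 170 and 205 in females. It was -1.55 for Potri.001G335700.2, with 24 and 80 counts in males and 114 and 130 in females. It was -1.05 for Potri.002G079900.1, with 572 and 1132 counts in males and 1224 and 1171 in females. With TMM factors, size factors or sums of listed rows the calls of Potri.001G335700.2 and Potri.002G079900.1 were lost, while those of Potri.006G068900.1 and Potri.006G264500.1 held. With 1 pool per group, variation between pools was not measured.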

How the results depend on the processing

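Each group holds 1 library, so no library could be left out. No paired analysis was possible because each group has 1 library. Of the counts of called members and the medians under each alternative, 20 values were marked as moved, 2 changed sign and 80 were marked as kept. The 80 include medians that shifted without a change of sign. With TMM factors that for UV-B in males went from -0.09 to -0.30. The median for sex under ambient UV-B went from -0.20 to -0.01. For UV-B in males the 2 higher calls became 1 with TMM factors, size factors, sums of listed rows or a 3-fold limit. For UV-B in females the 3 lower calls became 5 with the excluded rows kept in. For females against males under reduced UV-B a 3-fold limit left 2 of 4 higher and 5 of 8 lower calls. For sex by UV-B the 2 lower calls became 0 with TMM factors, size factors, sums of listed rows or 3-fold, 1 without a filter and 4 with the excluded rows kept in. With an assumed coefficient of variation of 0.3, each count of called members in the 4 comparisons of library pairs was 0, and all rows kept 0 higher and 5 lower for UV-B in males, 3 and 11 in females, 28 and 57 for sex under reduced UV-B and 46 and 77 under ambient UV-B. The median for UV-B in males went from -0.09 to 0.10 among members with at least 50 counts, and that of all rows from 0.11 to 0.28. For sex under ambient UV-B it went from -0.20 to 0.049 with sums of listed rows, and that of all rows from -0.11 to 0.14. The members' median thus stayed below that of all rows in both cases. Rescaling shifts the ratio of every row alike, and the cause of the first change was not tested. Of 90 values of the called ratios of named members under other scalings, 80 kept their call and 10 lost it, none with a change of direction. Size factors and sums gave all rows -0.20 and -0.21 for UV-B in males, and 0.19 and 0.25 for sex under ambient UV-B, as shifts of the median. With size factors the split of all rows was 125 higher and 225 lower, and 554 and 623. Depth limits the scarce members: the interval lay within 2-fold for 15 members in males and 19 in females.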

Other observations

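Among rows with at least 50 counts, the library holding the highest CPM was the male one under reduced UV-B for 15 of 52 wall members (28.8%) and for 18.1% of all rows, and the male one under ambient UV-B for 14 members (26.9%) and 37.8% of all rows. With TMM factors the first was 36.5% of members against 23.5% of all rows, and the second 19.2% against 26.4%. The lowest CPM was in females under ambient UV-B for 36.5% of members and 26.7% of all rows, and with TMM factors for 36.5% and 25.3%. The male library under reduced UV-B also held the lowest CPM for 32.7% of members and 33.3% of all rows. With TMM factors these shares were 28.8% and 29.1%. These shares were looked at after the data were seen and carry no test.

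Other pairs of members had consecutive identifiers. The carboxylesterases Potri.006G134500.1 and Potri.006G134600.1 summed to 86, 97, 106 and 153 counts in the reduced and ambient UV-B libraries of males and then of females. The fucosidases Potri.010G047900.1 and Potri.010G048000.1 summed to 9, 2, 5 and 8, the former at 0 in both male libraries. The glycosidases Potri.011G154100.1 and Potri.011G154200.1 summed to 113, 68, 38 and 20.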
